A study of Mus musculus with 4 samples.

Results

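Ly6a, Ly6c1, Ly6c2 and Ly6e are members of the Ly6 surface antigen family, and their levels were followed in single C3H 10T1/2 cells, a mouse line of mesenchymal progenitor cells (MPC), that expressed H3WT or H3R26C. The genes were chosen by name, as 4 of the 32285 genes counted, and all 4 were detected in every library. The 4 libraries were H3WT with DMSO, H3WT with 5-azacytidine (5-Aza), H3R26C with DMSO and H3R26C with 5-Aza, with 1 library for each condition. H3WT and H3R26C were tagged histone H3 transgenes carried by a lentiviral vector with an EF1 promoter, and all cells kept their own H3 genes. The inhibitor of DNA methylation 5-Aza was given at 3 µM for 24 h to start differentiation, and the differentiated cells were harvested on day 28. The harvest day of the DMSO cells is not given in the sources used here, so 5-Aza and time in culture cannot be told apart. Cells were kept at a minimum of 5000 unique molecular identifiers (UMIs, one per captured RNA molecule) and 1500 genes, with up to 20% mitochondrial UMIs. This left 3710 H3WT DMSO, 5993 H3WT 5-Aza, 4727 H3R26C DMSO and 7619 H3R26C 5-Aza cells. Median depth was higher with DMSO, at 22420 UMIs per cell in H3WT and 16598 in H3R26C, than with 5-Aza, at 13149 and 13123. Pairs of libraries shared 24 to 58 cell barcodes, at most 1.11% of the cells of a library.

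Ly6 proteins are small, cysteine-rich proteins that are held on the outer face of the plasma membrane by a glycosylphosphatidylinositol (GPI) anchor. Ly6a encodes Sca-1, which is widely used to mark progenitors of the blood and of mesenchymal tissues in mice, while Ly6c1 and Ly6c2 encode the Ly6C antigens of monocytes and endothelium. Ly6e encodes a widely expressed member known from the response to viruses, and Ly6a and Ly6e are both known targets of interferon.

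The 4 genes lie in 1 cluster on chromosome 15 (GRCm38, GENCODE M21 annotation), and all are protein-coding. Ly6e (ENSMUSG00000022587) lies at chr15:74955051-74959905 on the plus strand. Ly6a (ENSMUSG00000075602) at chr15:74994877-74998031, Ly6c1 (ENSMUSG00000079018) at chr15:75044018-75048830 and Ly6c2 (ENSMUSG00000022584) at chr15:75108158-75111970 are all on the minus strand. Over the last 600 bases of their longest transcripts, Ly6c1 and Ly6c2 were 98.3% identical, and Ly6a and Ly6c1 were 85.1% identical. Of the 90-base windows of annotated transcripts, 134 of 777 in Ly6c2 and 228 of 1764 in Ly6c1 were also found in another gene, against 29 of 1311 in Ly6a and 0 of 3098 in Ly6e. The 29 windows of Ly6a were shared with Ly6c1. Reads from such windows cannot be assigned to 1 gene, so the separate values of Ly6c1 and Ly6c2 are uncertain. Their summed level and its ratios are given beside the separate ones, and this sum does not cover the windows shared with Ly6a.

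Since 5-Aza inhibits DNA methylation, which falls on CG pairs, the promoters of the Ly6C copies were read from a table of RefSeq promoters (GRCm38.p6). The table used here held 2 of the 4 genes, with 2 starts for each, and the promoters of Ly6a and Ly6e were not analysed here. The stretches shown lie before the outermost of these starts in each gene and run 5′ to 3′ on the minus strand. They lie outside annotated exons, so they stop short of that start. The aim is to compare the copies, with CG pairs in capitals. The stretches cover chr15:75048921-75049087 for Ly6c1 and chr15:75112067-75112221 for Ly6c2.
Ly6c1: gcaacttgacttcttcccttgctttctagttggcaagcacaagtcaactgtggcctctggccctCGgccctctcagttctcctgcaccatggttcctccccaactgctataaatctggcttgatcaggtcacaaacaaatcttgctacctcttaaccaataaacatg
Ly6c2: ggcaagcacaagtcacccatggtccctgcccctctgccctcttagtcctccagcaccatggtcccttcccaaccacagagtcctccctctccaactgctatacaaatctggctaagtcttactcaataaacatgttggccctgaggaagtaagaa
The full windows run from 250 bases before to 50 bases after the outermost starts in that table, and so reach into the annotated genes. They held 1 CG pair in Ly6c1 and 0 in Ly6c2, whereas the median of 32851 promoters was 7. The windows of all 4 starts lacked the letters TTCNNNGAA on either strand, the GAS motif known from interferon signalling, which 8.30% of all promoters held. This says only that these letters are not in these windows.

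Ly6a was the most counted member in each library, at 578 CPM (UMIs per 1000000 UMIs of the library) in H3WT DMSO, 1034 in H3WT 5-Aza, 667 in H3R26C DMSO and 1582 in H3R26C 5-Aza. Both 5-Aza libraries were above both DMSO libraries. In the same order, Ly6c1 was at 60.1, 107, 55.2 and 92.1 CPM, and here too the 5-Aza libraries were the higher ones, with H3R26C below H3WT under both treatments. Ly6c2 was at 44.3, 87.9, 40.1 and 182 CPM, so that H3R26C 5-Aza stood apart from the rest. Both Ly6C copies together were at 104, 195, 95.3 and 274 CPM. Ly6e spanned the widest range, from 15.7 CPM in H3WT DMSO and 29.2 in H3R26C DMSO to 101 in H3WT 5-Aza and 884 in H3R26C 5-Aza. The exact Poisson intervals, which cover counting error only, were narrow, from 14.8 to 16.5 CPM for the lowest of these values (Ly6e in H3WT DMSO, 1361 UMIs).

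**Figure D1:**
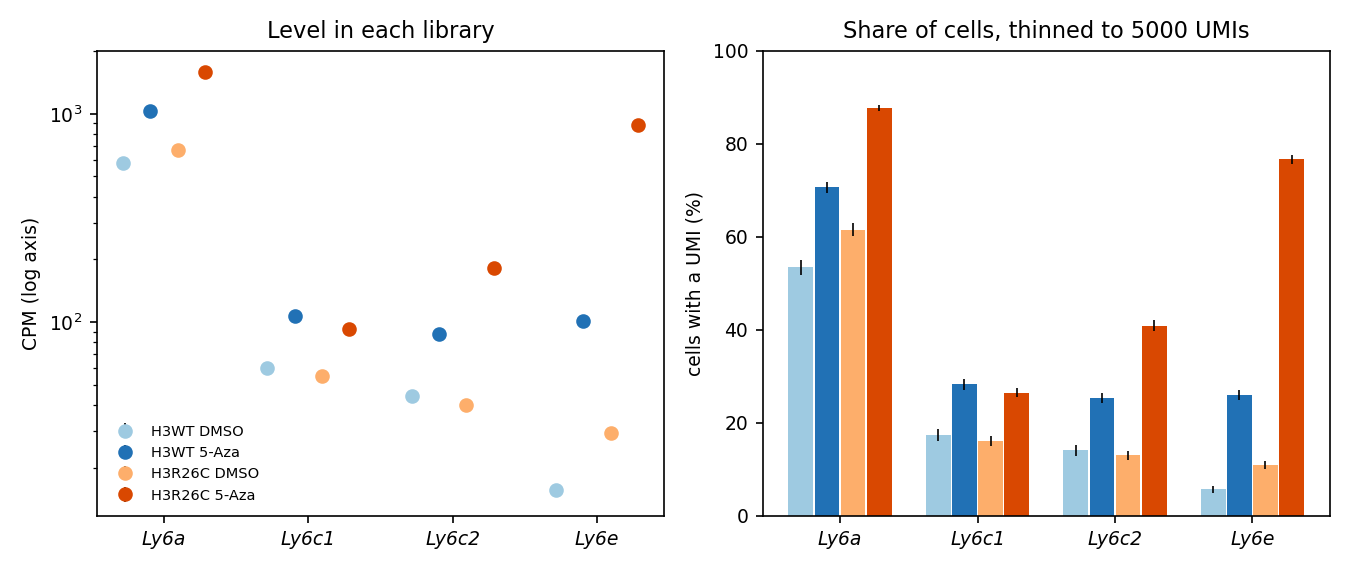
Level of each member (CPM, log axis, left) and share of cells with a UMI after thinning to 5000 UMIs per cell (right) in the 4 libraries, with 95% counting intervals. Ly6e rose from 29.2 to 884 CPM between H3R26C DMSO and H3R26C 5-Aza, and all members were higher in the 5-Aza libraries.

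The change with 5-Aza was taken as the ratio of CPM between libraries, and a gene counted as past 2-fold where the log2 ratio, with 1 CPM added to each level, reached 1. With 1 library per condition there is no replicate check and no test, and the intervals describe these libraries only. In H3WT, 1 of the 4 members was past 2-fold higher with 5-Aza, where 4.26% of the 12306 genes at 1 CPM or more on average were. This was Ly6e, at a ratio of 6.46 (interval 6.1 to 6.85), while Ly6a reached 1.79 (1.77 to 1.81), Ly6c1 1.78 (1.72 to 1.84) and Ly6c2 1.99 (1.91 to 2.06). None was past 2-fold lower (0.276% of all genes), and the median log2 ratio of all genes was 0.04. Ly6c2 lay close to the threshold and passed it, giving 2 members, when cells were weighted equally, when the 5% of cells with most UMIs were left out or when muscle-like and adipocyte-like cells were left out.

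In H3R26C, 3 of the 4 members were past 2-fold higher with 5-Aza, where 8.04% of 12551 genes were. Ly6e was 30.2-fold higher (29.0 to 31.5), the 39th largest of the 12551 log2 ratios. Ly6c2 was 4.55-fold higher (4.38 to 4.72), Ly6a 2.37-fold (2.35 to 2.40) and Ly6c1 1.67-fold (1.61 to 1.73). No member was past 2-fold lower, where 3.09% of all genes were, and the median log2 ratio of all genes was -0.03. Summed over both copies, Ly6c1 and Ly6c2 changed by 1.52 on the log2 scale in H3R26C and by 0.89 in H3WT.

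The ratio with 5-Aza in H3R26C was 4.68 times that in H3WT for Ly6e (counting interval 4.36 to 5.01), 2.29 times for Ly6c2 (2.17 to 2.41) and 1.33 times for Ly6a (1.31 to 1.34). For Ly6c1 it was 0.940 times (0.896 to 0.987). Within the clusters that could be compared, which are described further on, this value of Ly6c1 over all cells was not kept throughout. These clusters leave out cluster B, which held 5440 of the 7619 H3R26C 5-Aza cells. The ratio of Ly6c1 with 5-Aza was higher in H3R26C than in H3WT in 4 of the 5 clusters compared (2.71 against 2.26 in A, 3.03 against 1.88 in C, 2.55 against 1.62 in D and 1.19 against 1.14 in H). It was lower in E (0.472 against 2.30). Cluster C rests on 49 H3R26C 5-Aza cells and E on 41 H3WT DMSO cells, and the values in H were close. These comparisons were not tested, since the spread between libraries of 1 condition is unknown.

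Between genotypes with DMSO, 0 of the 4 members were past 2-fold in either direction, where 1.82% of 12052 genes were higher and 0.589% lower in H3R26C. Ly6e came nearest, at 1.87 times the H3WT level (1.75 to 1.99), followed by Ly6a at 1.15 (1.14 to 1.17). Ly6c1 at 0.917 (0.882 to 0.955) and Ly6c2 at 0.906 (0.865 to 0.949) were slightly lower in H3R26C, and their sum changed by -0.13 on the log2 scale. Within clusters these ratios varied in direction, from 0.511 in C and 0.628 in H to 1.01 in D, 1.09 in A and 2.85 in E for Ly6c2, and from 0.521 in C to 3.31 in E for Ly6c1. With 5-Aza, 2 of the 4 members were past 2-fold higher in H3R26C, where 4.79% of 12669 genes were, and 0 were lower, where 2.64% were. Ly6e was 8.72-fold higher (8.53 to 8.92), the 20th largest log2 ratio of all genes. Ly6c2 was 2.07-fold higher (2.02 to 2.13), just past the threshold, and Ly6a 1.53-fold (1.52 to 1.54). Ly6c1 was lower, at 0.862 (0.838 to 0.887) of the H3WT level, while the sum of both Ly6C copies was higher by 0.49 on the log2 scale. The H3R26C 5-Aza library enters both this comparison and the one between treatments in H3R26C, so the values are not independent.

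The make-up of the family therefore differed between libraries. Ly6a gave 82.8% of the UMIs of the 4 members in H3WT DMSO, 77.7% in H3WT 5-Aza, 84.3% in H3R26C DMSO and 57.7% in H3R26C 5-Aza. Ly6e gave 2.25%, 7.61%, 3.69% and 32.2%, so that Ly6a had its lowest and Ly6e its highest share in H3R26C 5-Aza. There were 1.36, 1.21, 1.38 and 0.505 UMIs of Ly6c1 for each UMI of Ly6c2. Ly6c1 was thus the more counted copy in 3 libraries and the less counted one in H3R26C 5-Aza (interval 0.493 to 0.517).

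Shares of cells with a UMI were compared after thinning each cell at random to 5000 UMIs, since they rise with depth. The share with Ly6a was 53.4% in H3WT DMSO, 70.6% in H3WT 5-Aza, 61.5% in H3R26C DMSO and 87.7% in H3R26C 5-Aza, and without thinning it was 72.3%, 81.6%, 76.8% and 94.2%. In the same order, Ly6e was found in 5.69%, 25.98%, 10.8% and 76.7% of thinned cells (17.3%, 40.9%, 24.9% and 87.5% without thinning). The share with Ly6e thus went from the lowest of the family in H3WT DMSO to the next highest after Ly6a in H3R26C 5-Aza. Ly6c1 was in 17.3%, 28.3%, 16.0% and 26.4% of thinned cells, and Ly6c2 in 14.0%, 25.3%, 13.0% and 40.9%. Their shares without thinning were 37.7%, 44.2%, 32.0% and 45.7% for Ly6c1 and 33.8%, 42.3%, 28.5% and 61.2% for Ly6c2. All 4 members were found together in 1.05%, 5.47%, 0.931% and 15.3% of thinned cells. No cell type known to lack these genes was found in the data, so the share given by free RNA was not measured, and the lower shares of muscle-like cells are given with those cells.

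Ly6a was unevenly spread over cells. Its thinned counts had a mean of 2.54 UMIs and a variance 6.91 times the mean in H3WT DMSO, and a mean of 7.95 with a variance 9.90 times the mean in H3R26C 5-Aza. At the mean of H3WT DMSO a Poisson count would leave 7.85% of cells without a Ly6a UMI, and 46.6% had none. The highest thinned cell held 34 Ly6a UMIs in H3WT DMSO and 88 in H3R26C 5-Aza. Among cells with Ly6e, its mean count was 1.29 UMIs in H3WT DMSO, 1.85 in H3WT 5-Aza, 1.29 in H3R26C DMSO and 5.83 in H3R26C 5-Aza. Both the share of cells with Ly6e and the count in those cells were thus highest in H3R26C 5-Aza.

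Over the thinned cells of a library, Ly6a, Ly6c1 and Ly6c2 formed the closest group. Spearman's rho between Ly6a and Ly6c1 was 0.49 in H3WT DMSO, 0.56 in H3WT 5-Aza, 0.46 in H3R26C DMSO and 0.48 in H3R26C 5-Aza. Between Ly6a and Ly6c2 it was 0.44, 0.53, 0.40 and 0.57, and between Ly6c1 and Ly6c2 0.38, 0.44, 0.37 and 0.44, although the copies share sequence. Ly6a and Ly6c1 also share some sequence, and its part in their correlation was not tested. Pairs with Ly6e were weaker, at 0.16 to 0.27 with Ly6a, 0.06 to 0.14 with Ly6c1 and 0.07 to 0.19 with Ly6c2, and a weak correlation in sparse counts is no finding. Of the 6 pairs, 6, 6, 4 and 6 reached 0.1. Of 5357 other genes, 3.83%, 4.46%, 3.42% and 6.27% did so with Ly6a. The shares were 1.55%, 2.11%, 1.33% and 2.09% with Ly6c1, 1.33%, 1.79%, 1.12% and 2.52% with Ly6c2, and 0.205%, 0.336%, 0.187% and 3.06% with Ly6e. All values are over 3710 to 7619 cells of 1 library, which share its preparation, and they describe these cells only. Within the largest cluster of each library, described with the clusters, rho between Ly6a and Ly6c1 was 0.49, 0.55, 0.51 and 0.43, and 6, 5, 6 and 4 of the 6 pairs reached 0.1. The lowest pairs there were with Ly6e, and in H3R26C 5-Aza rho with Ly6e was 0.13 for Ly6a, 0.08 for Ly6c2 and 0.03 for Ly6c1.

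**Figure D2:**
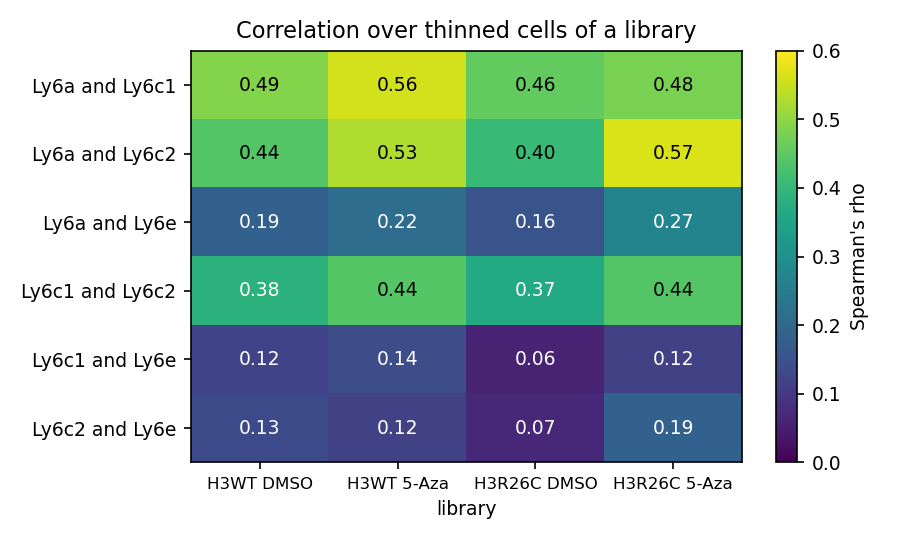
Spearman's rho for the 6 pairs of members (vertical axis) over the thinned cells of each library (horizontal axis), with the value in each field. The 3 pairs among Ly6a, Ly6c1 and Ly6c2 lie between 0.37 and 0.57, and the 3 pairs with Ly6e between 0.06 and 0.27.

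The share of cells with Ly6c1 or Ly6c2 followed the Ly6a count of the cell. In H3WT DMSO, Ly6c1 was found in 2.89% of the 1729 thinned cells without Ly6a and in 70.1% of the 241 cells with 11 or more Ly6a UMIs. In H3R26C 5-Aza these shares were 5.02% of 937 cells and 58.0% of 2060 cells. Ly6c2 went from 2.02% to 63.1% in H3WT DMSO and from 8.64% to 76.6% in H3R26C 5-Aza. Ly6e behaved differently in H3R26C 5-Aza, where 54.4% of the cells without a Ly6a UMI already held it, against 83.8% of those with 11 or more. In the other libraries, the share of cells without Ly6a that held Ly6e was 2.14% (H3WT DMSO), 13.4% (H3WT 5-Aza) and 5.77% (H3R26C DMSO). Cells with the same Ly6a class differed in Ly6e by library, and in all 5 classes the order from H3WT DMSO to H3R26C DMSO, H3WT 5-Aza and H3R26C 5-Aza was kept, with overlapping intervals between the DMSO libraries in the classes of 6 to 10 and of 11 or more Ly6a UMIs.

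**Figure D3:**
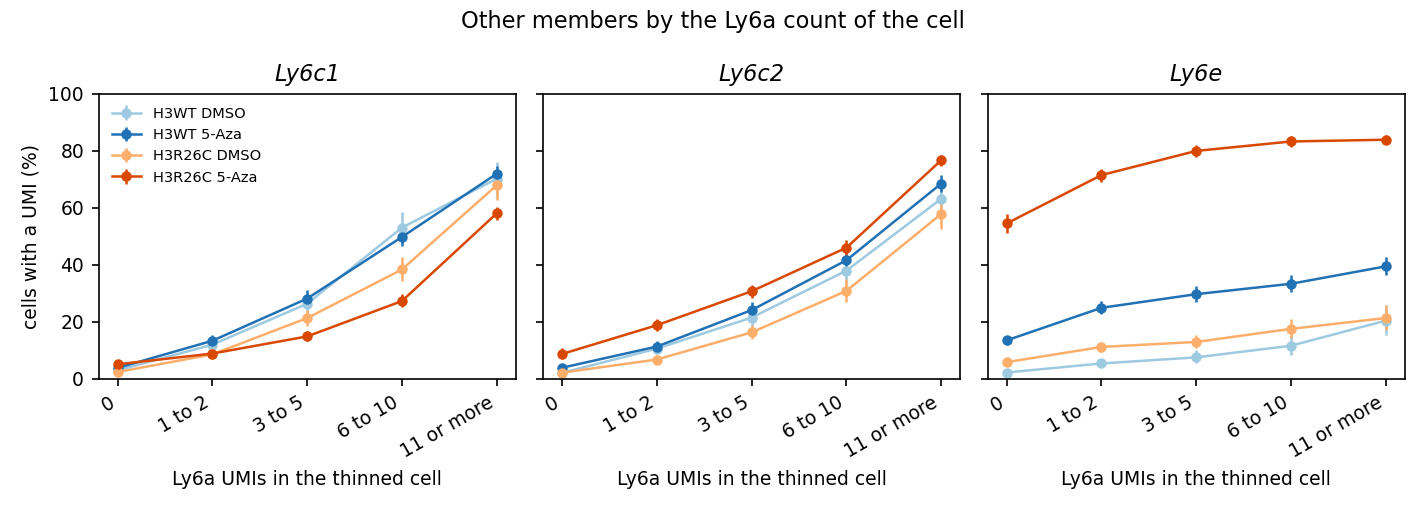
Share of thinned cells with a UMI of Ly6c1, Ly6c2 or Ly6e (vertical axis, percent) by the number of Ly6a UMIs in the cell (horizontal axis) in the 4 libraries, with 95% binomial intervals. Ly6c1 and Ly6c2 were rare in cells without Ly6a in each library, whereas Ly6e was in 54.4% of such cells in H3R26C 5-Aza.

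Among 5356 genes with a UMI in at least 10% of the thinned cells of every library, Ly6c1 and Ly6c2 ranked 1 and 2 by mean rho with Ly6a, at 0.50 and 0.48. The sequence that Ly6c1 shares with Ly6a limits the first of these values. Clec3b, which encodes the plasminogen-binding protein tetranectin, followed at 0.47, Pcolce2, an enhancer of procollagen processing, at 0.44 and Serpinb6a, an intracellular protease inhibitor, at 0.39. The lowest mean was that of Bgn, the matrix proteoglycan biglycan, with Ly6a, at -0.29, then Col4a1 and Nrep, both at -0.24. The value for Bgn lay between -0.42 and -0.37 in the other 3 libraries but was 0.02 in H3R26C 5-Aza. Ly6a and the other copy were the 2 genes most like Ly6c1 and Ly6c2 as well, with Clec3b and Pcolce2 next for both, then Dcn (0.27) for Ly6c1 and Serpinb6a (0.25) for Ly6c2. Bgn was again lowest, at -0.22 with Ly6c1 and -0.19 with Ly6c2. Ly6e was below 10% of cells in H3WT DMSO and was compared in the 5-Aza libraries only, a choice made after seeing the data. There Ly6a was most like it at a mean of 0.24, followed by H2-K1, a class I histocompatibility gene (0.20), the interferon-stimulated Bst2 (0.19), Cpq (0.19) and H2-Q4 (0.19).

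For clustering, the 4 members were dropped from the variable genes, and the cells of all libraries formed 10 clusters, A to J by size. Cluster F with 550 cells and cluster I with 119 cells were skeletal muscle-like, each with 12 of 13 muscle markers. Cluster J with 61 cells was adipocyte-like, with 11 of 13 adipocyte markers. The others stayed unnamed and are given by their leading genes. Cluster B, with Slpi and Ndufa4l2 among its leading genes, held 5440 of the 7619 H3R26C 5-Aza cells but 23 H3R26C DMSO and 14 H3WT DMSO cells, so treatments could not be compared in it. Cluster G, led by Cilp, Wfdc13 and Rspo1, held 521 cells, all of H3R26C 5-Aza, and a cluster of 1 library may be that library and not a cell type.

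Ly6e was higher with 5-Aza in each of the 5 clusters that could be compared (A, C, D, E and H), at 2.55 to 7.67 times the DMSO level in H3WT and 11.1 to 26.6 times in H3R26C. The low end in H3WT was that of cluster E, where Ly6e was at 11.8 CPM (4.74 to 24.3) in 41 DMSO cells. In cluster A, the largest cluster of each library but H3R26C 5-Aza, Ly6e was at 14.0 CPM in H3WT DMSO, 93.8 in H3WT 5-Aza, 20.8 in H3R26C DMSO and 230 in H3R26C 5-Aza. Ly6a in cluster A was at 536, 1268, 699 and 2043 CPM. Both were again higher with 5-Aza. Over the 5 clusters, Ly6a was 1.27 to 2.36 times as high with 5-Aza in H3WT and, apart from cluster E, 1.75 to 4.12 times in H3R26C. Ly6c1 was 1.14 to 2.30 times as high with 5-Aza in H3WT, and in H3R26C it was 2.71 times as high in A, 3.03 in C and 2.55 in D, all above its ratio of 1.67 over all cells, and 1.19 in H. Ly6c2 was 1.198 to 2.57 times as high in H3WT and 4.16 to 7.78 times in H3R26C outside cluster E, where it was 1.15 times. In cluster E of H3R26C, Ly6a was lower with 5-Aza, at 470 against 817 CPM, and so was Ly6c1, at 39.6 against 83.8 CPM. Cluster E was led by the nuclear RNAs Gm26917 and Neat1, and its cells had the lowest median depth of the clusters, 7938 UMIs. The part of depth in this difference was not tested.

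Between genotypes with 5-Aza, Ly6e was higher in H3R26C in each of the 8 clusters compared, at 2.46 to 11.7 times the H3WT level. The other members varied more. In cluster B, Ly6a was at 392 CPM in 1083 H3WT cells and at 1481 CPM in 5440 H3R26C cells, a ratio of 3.78, and Ly6c1 was 2.53-fold higher there. In the muscle-like cluster I, with 60 H3R26C and 59 H3WT cells, H3R26C was lower for Ly6a (143 against 336 CPM). It was also lower there for Ly6c1 (14.1 against 79.0 CPM) and Ly6c2 (21.8 against 54.6 CPM). In the other clusters compared, Ly6c2 was higher in H3R26C, while Ly6c1 was higher in A, B and D and lower in C, E, F and H. Cluster G held the highest levels of Ly6a, at 3199 CPM, and of Ly6e, at 3272 CPM, and rho between these genes was 0.58 over its 521 cells, against 0.13 in cluster B of the same library.

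**Figure D4:**
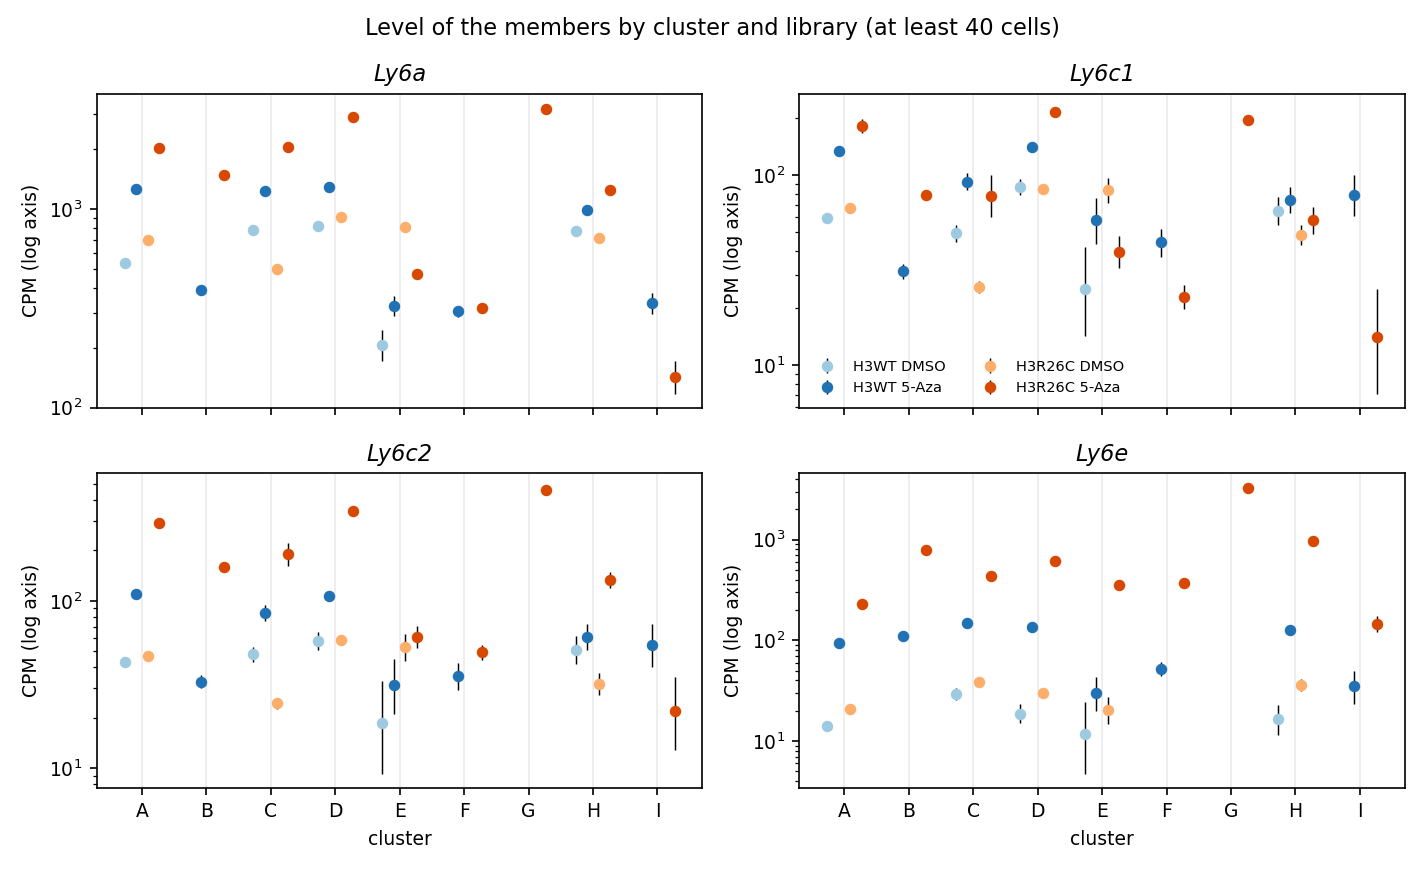
Level of each member (CPM, log axis) in the clusters with at least 40 cells of a library (horizontal axis), with 95% Poisson intervals and colours for the 4 libraries. Ly6e in H3R26C 5-Aza lies above the other libraries in every cluster that holds points of more than 1 library, and Ly6a is lowest in the muscle-like clusters F and I among H3R26C 5-Aza cells.

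Muscle-like cells (clusters F and I), found in the 5-Aza libraries alone, held less of every member than the other cells of their library. Ly6a was at 312 CPM in 247 muscle-like cells and 1071 CPM in 5746 other cells of H3WT 5-Aza, a ratio of 0.291 (0.275 to 0.308). In H3R26C 5-Aza it was at 300 CPM in 422 and 1688 CPM in 7197 cells, a ratio of 0.178 (0.171 to 0.185). After thinning, 31.6% of muscle-like and 72.3% of other cells held Ly6a in H3WT 5-Aza, and 44.5% and 90.2% in H3R26C 5-Aza. The median depths were 14962 and 13112 UMIs in H3WT and 19327 and 12953 in H3R26C. Ly6e was at 48.4 against 104 CPM in H3WT and at 350 against 928 CPM in H3R26C, so muscle-like H3R26C cells still held more Ly6e than the other H3WT cells. In all 8 combinations of member and library the level was at most 0.5 times that of the other cells, where 12.6% of all genes in H3WT and 14.8% in H3R26C were, and the median ratio of all genes was 0.900 and 0.859. This count went to 0 of 8 for the 3499 cells with at least 3 muscle markers after thinning. Their ratios were 0.663 to 0.868, and 0.208% of all genes in H3WT and 0.275% in H3R26C were at most 0.5 times. Those cells were also less rich in muscle RNA, with Myog (myogenin) in H3WT at 267 CPM against 1189 CPM in the muscle-like clusters, and in H3R26C at 376 against 1180 CPM. They were 1461 cells of H3WT and 2038 of H3R26C, at lower median depths of 11785 and 11417 UMIs. The part of free muscle RNA in these cells was not measured, so whether they are a comparable set of muscle cells is not known. Clusters were built from the other variable genes of these same cells, so the contrast is a description.

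Adipocyte-like cells were few, with 26 in H3WT 5-Aza, 13 in H3R26C 5-Aza, 12 in H3R26C DMSO and 10 in H3WT DMSO. Ly6a was at 93.6 CPM in those of H3WT 5-Aza, from 44 UMIs, against 1039 CPM in the other cells, a ratio of 0.090 (0.065 to 0.121). Its ratio was 0.194 (0.153 to 0.242) in H3R26C 5-Aza and 0.062 (0.032 to 0.108) in H3R26C DMSO. Ly6e was at 136 against 101 CPM in H3WT 5-Aza, a ratio of 1.35 (1.04 to 1.72), and at 224 against 885 CPM in H3R26C 5-Aza, a ratio of 0.254 (0.192 to 0.329). In H3WT DMSO, Ly6a rested on 3 UMIs, at a ratio of 0.025 (0.0051 to 0.072). Ly6a was thus lower in the adipocyte-like cells of each library. For Ly6e, the level and the share of cells differed in direction in H3WT 5-Aza, and both were lower in H3R26C 5-Aza. With DMSO, Ly6e had at most 1 UMI in these cells.

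Since Ly6a and Ly6e are known interferon targets, the members were set beside a list of 24 interferon-stimulated genes without a Ly6 gene. Of the list, 10 of 20 tested genes were past 2-fold higher with 5-Aza in H3WT and 19 of 23 in H3R26C, where 4.26% and 8.04% of all genes were, at median log2 ratios of 0.99 and 2.37. Between genotypes, 1 of 19 with DMSO and 16 of 23 with 5-Aza were higher in H3R26C, where 1.82% and 4.79% of all genes were, at medians of 0.43 and 1.85. The summed level of the list was 572 CPM in H3WT DMSO, 1066 in H3WT 5-Aza, 724 in H3R26C DMSO and 3024 in H3R26C 5-Aza, the same order as for Ly6a and Ly6e. A link between the list and the members was not tested. Among its most expressed genes, Isg15, a ubiquitin-like protein, was at 13.0, 65.2, 23.0 and 363 CPM, and Bst2, the antiviral protein tetherin, at 103, 210, 139 and 596 CPM. Ifi27 was at 212, 362, 212 and 454 CPM, and Ifi27l2a at 23.3, 62.7, 74.8 and 645 CPM.

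Within each library the members were also higher in the cells with more interferon-stimulated RNA. Cells were ordered by their UMIs of the list, and the third with most was compared with the third with fewest. In H3R26C 5-Aza, Ly6a was at 2509 against 708 CPM, a ratio of 3.54 (3.46 to 3.63), Ly6c2 at 3.01, Ly6c1 at 2.89 and Ly6e at 2.02. In H3WT 5-Aza, Ly6e had the largest ratio, at 2.07 (133 against 64.2 CPM), and the others were at 1.65 to 1.72. With DMSO the ratios were 1.44 to 1.69 in H3WT and 1.57 to 1.99 in H3R26C, on low counts for Ly6e (12.1 to 39.4 CPM). In 15 of 16 combinations the ratio reached 1.5, where 4.54% of genes outside the list did in H3WT DMSO, 3.23% in H3WT 5-Aza, 3.56% in H3R26C DMSO and 6.26% in H3R26C 5-Aza. The exception was Ly6a in H3WT DMSO. The third with fewest such UMIs in H3R26C 5-Aza held Ly6e at 613 CPM, and the third with most in H3WT 5-Aza at 133 CPM. Ly6a was at 708 CPM with fewest in H3R26C 5-Aza and at 1244 CPM with most in H3WT 5-Aza. With fewest in H3WT 5-Aza, Ly6a was at 724 CPM. Cells were ordered within each library, so these groups were not matched in interferon-stimulated RNA between libraries. The cells with fewest in H3R26C 5-Aza held a mean of 4.88 UMIs of the list after thinning. In H3WT 5-Aza this mean was 1.77 in the cells with fewest and 9.71 in those with most. Spearman's rho with the summed list was highest for Ly6a in H3R26C 5-Aza, at 0.52 over 7619 cells, and was 0.24 for Ly6e there.

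**Figure D5:**
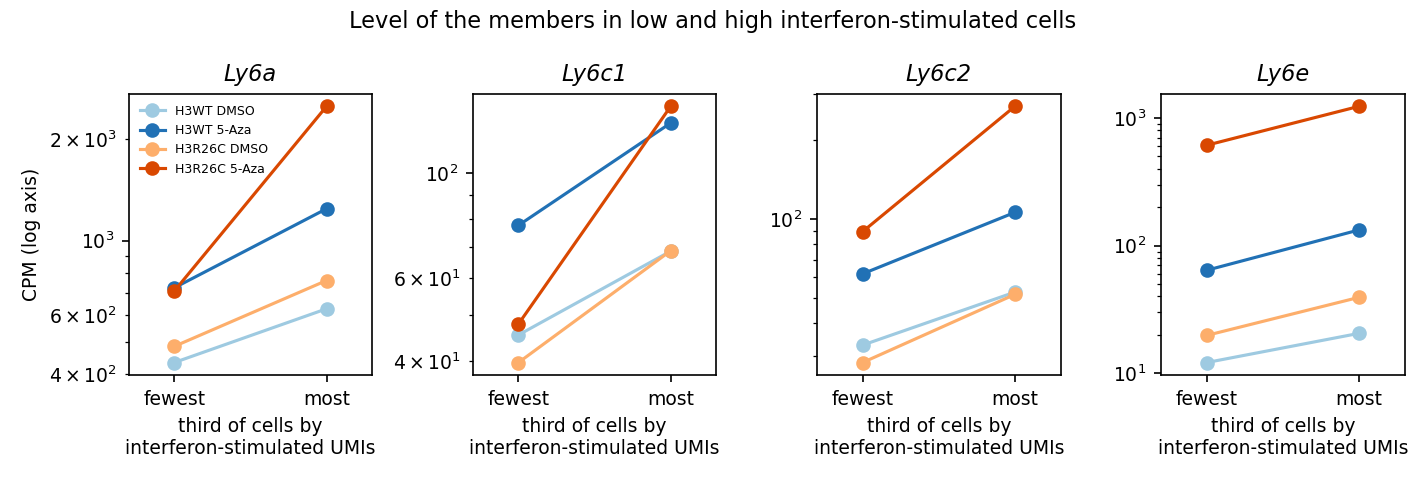
Level of each member (CPM, log axis, a separate scale in each panel) in the third of cells with the fewest and the third with the most interferon-stimulated UMIs of each library, after thinning. Points are sums over cells of all clusters, without replicates, and Ly6a in H3R26C 5-Aza went from 708 to 2509 CPM.

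The tested genes for interferon receptors and their kinases and for the GPI anchor stayed within 2-fold, as did most genes in each comparison. The list of 14 genes held 5 interferons, none of which was tested, since Ifna4, Ifnb1, Ifnl2 and Ifnl3 had 0 UMIs and Ifng at most 10 in a library. The 8 tested genes, 5 receptor genes and the kinases Jak1, Jak2 and Tyk2, were all within 2-fold in each comparison, with medians of 0.08 with 5-Aza in H3WT and -0.08 in H3R26C, and of 0.23 with DMSO and 0.17 with 5-Aza between genotypes. The kinase gene Jak1 was at 120 to 166 CPM and the receptor gene Ifnar2 at 62.9 to 123 CPM over the libraries. Of the 26 tested genes for making and attaching the GPI anchor, 0 were past 2-fold, with medians of 0.11, 0.09, 0.10 and 0.07 in the same order. Of all genes, 4.26%, 8.04%, 1.82% and 4.79% were past 2-fold higher, and 0.276%, 3.09%, 0.589% and 2.64% lower. Counts of 0 in lists this short therefore say little about these genes. Of 39 other Ly6/uPAR genes, 1 of 5 tested was past 2-fold higher with 5-Aza in H3WT and 2 of 6 in H3R26C, and between genotypes 0 of 4 with DMSO and 2 of 7 with 5-Aza, against 4.26%, 8.04%, 1.82% and 4.79% of all genes. Lypd1 was past 2-fold lower with 5-Aza in H3R26C, from 4.34 to 1.64 CPM, and was named after its values were seen. Slurp1, a secreted member, was at 0.299, 4.17, 0.428 and 21.7 CPM in H3WT DMSO, H3WT 5-Aza, H3R26C DMSO and H3R26C 5-Aza. Both Slurp1 and Plaur, the urokinase receptor, passed in H3R26C, and Plaur ranged from 6.22 CPM in H3WT DMSO to 30.5 CPM in H3R26C 5-Aza. Lynx1, a modulator of acetylcholine receptors, was at 19.5 to 38.0 CPM, and Cd59a, a complement inhibitor, at 15.2 to 24.9 CPM, without a change past 2-fold.

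Within 500 kb of the members 34 genes were annotated, 30 of them no members, and 7 of these reached 1 CPM in a library. Slurp1 was past 2-fold higher with 5-Aza in both genotypes, and Them6 in H3R26C, where it went from 5.22 to 22.6 CPM. Of all genes, 4.26% were past 2-fold higher in H3WT and 8.04% in H3R26C. With 5-Aza, Slurp1 and Them6 were also past 2-fold higher in H3R26C than in H3WT, at log2 ratios of 2.13 and 1.72, where 4.79% of all genes were. Ly6g2 had log2 ratios with 5-Aza of 1.06 in H3WT and 1.07 in H3R26C. Its mean in each comparison was below 1 CPM, so it was not among the tested genes. It stayed low, at 1.13 and 1.16 CPM with 5-Aza, and rested on 2 UMIs in either DMSO library. Ly6i, which lies between Ly6e and Ly6a, was at 0.449, 0.960, 0.452 and 1.69 CPM. Arc, Jrk and Lynx1 stayed within 2-fold in all 4 comparisons. Lynx1 had the highest level of these neighbours, up to 38.0 CPM, and in H3WT DMSO, at 19.5 CPM, it was above Ly6e.

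Levels of other cell types were checked beside these results. The 5 endothelial markers summed to 0.311 CPM in H3WT DMSO, 3.06 in H3WT 5-Aza, 0.428 in H3R26C DMSO and 9.37 in H3R26C 5-Aza, with Cdh5 at 5.39 CPM in the last. The 5 blood and myeloid markers summed to 5.06 to 14.2 CPM, with Ptprc at 0 to 1.26 CPM and Cd3e at 0 in 3 libraries. Skeletal muscle markers summed to 3.95 and 4.47 CPM with DMSO and to 2123 and 2656 CPM with 5-Aza in H3WT and H3R26C. Adipocyte markers summed to 214 CPM in H3WT DMSO, 427 in H3WT 5-Aza, 284 in H3R26C DMSO and 250.8 in H3R26C 5-Aza. Mitosis genes summed to 238, 427, 505 and 885 CPM, highest in H3R26C 5-Aza, and their rho with Ly6a was -0.14 there against 0.14 in H3WT DMSO. The smooth muscle (237 to 545 CPM), osteoblast (3.59 to 25.2 CPM) and chondrocyte markers (19.9 to 45.0 CPM) and 11 surface genes of mesenchymal progenitors (753 to 1082 CPM) were also summed. In that last list Itgb1, Pdgfra, Vcam1 and Thy1 were the most counted. Of its 9 tested genes, 3 were past 2-fold higher and 2 lower in H3R26C than in H3WT with 5-Aza, at a median log2 ratio of 0.39. Of all genes, 4.79% were past 2-fold higher and 2.64% lower there. The part of these cells and of cell division in the Ly6 levels was not tested.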

How the data were processed

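RNA of single cells was counted on a 10X Genomics platform. UMIs had been counted by the authors with Cell Ranger (6.1.0 in the file headers) on mm10 (GRCm38), and these counts were deposited per gene and barcode without normalization. Per the submitters' notes Seurat 4 was used later, and its output is not used here. No column was left unmapped.

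From the counts, cells were filtered as in the study's methods, and the kept cells held 84060490 to 110712425 UMIs per library. CPM is the sum over cells scaled to 1000000 UMIs, so intervals cover counting error only. Thinning drew UMIs without replacement. Genes with a mean of 1 CPM or more were tested for the 2-fold threshold, with no statistical test. Clusters came from SCTransform with cell cycle scores regressed (Seurat 5.3.0, sctransform 0.4.2, R 4.3.3), 20 principal components and a resolution of 0.2. The 42 S and 52 G2M genes were matched by letter case. A cluster was named with at least 3 markers in 25% of its cells, each 2 log2 units above other cells. Doublets were not removed, so cells with high UMIs may be doublets, and an alternative leaves out the 5% with most UMIs. TMM factors came from edgeR 4.0.16. Python 3.11.15, numpy 2.4.6, scipy 1.17.1, pandas 2.3.3, Biopython 1.88 and matplotlib 3.10.9 were used. GENCODE M21 matched 99.6% of the gene identifiers.

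Besides the members, genes were named by likeness to a member over cells (the 5 highest and 3 lowest by mean rho), as neighbours at 1 CPM or more, as Ly6/uPAR genes at 5 CPM or more or among the 4 genes of highest level of another list, apart from defining cell markers and leading genes of clusters. Members and lists were chosen with earlier results of these data known. The scripts were tested on simulated data. Alternatives changed the scaling, pseudocount, cell filter, thinning, clusters and marker rule.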

Additional observations from a re-analysis of the deposited data

Results flagged for a closer look

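In barcodes left out by the cell filter, Ly6e and Ly6a in both genotypes and Ly6c2 in H3R26C were higher with 5-Aza than with DMSO. These cases were picked because the intervals did not overlap. The intervals overlapped for Ly6c1 in H3R26C, at 46.8 CPM with 5-Aza and 45.0 with DMSO. They also overlapped in H3WT for Ly6c2 (52.5 with 5-Aza and 47.9 with DMSO) and Ly6c1 (53.9 and 47.9). Ly6e was at 61.8 CPM in the 9009 such barcodes of H3WT 5-Aza and 386 CPM in the 4491 of H3R26C 5-Aza, against 14.4 CPM in H3WT DMSO and 15.8 CPM in H3R26C DMSO. Ly6a was at 502 CPM in H3WT 5-Aza and 735 CPM in H3R26C 5-Aza, against 420 and 521 CPM with DMSO. Ly6c2 was at 89 CPM in H3R26C 5-Aza, against 47.0 CPM in H3R26C DMSO. These values show that members were counted in the barcodes that the main comparisons left out, which entered only an alternative with every barcode. Such barcodes had too few UMIs or genes or too many mitochondrial UMIs. The part of free RNA from other cells of the library in them was not measured, so they are no separate check. In each of the 5 cases picked, the level was below that of the kept cells. With DMSO, Ly6c2 in these barcodes was not below the kept cells, at 47.9 against 44.3 CPM in H3WT and 47.0 against 40.1 CPM in H3R26C.

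The genotype contrast of Ly6c2 turned with treatment, with a log2 ratio of H3R26C to H3WT of -0.14 with DMSO and 1.04 with 5-Aza. The DMSO value did not hold in every cluster, with a ratio of 1.09 in cluster A, 1.01 in D and 2.85 in E against 0.511 in C and 0.628 in H. The ratio in E rests on 41 H3WT DMSO cells. The difference between the contrasts with DMSO and with 5-Aza was not tested, because each condition has 1 library, and the shared sequence with Ly6c1 limits the value of either copy alone.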

How the results depend on the processing

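No paired analysis was possible because there was a single library for every condition. No library could be left out for the same reason. Of 103 values that alternatives gave for 14 counts, 98 stayed within 1.5 times the count reported. These include counts of 0 that stayed at 0, which say little. They also include counts of pairs that reached 0.1 and changed by less than this limit. Such a count was 6 in place of 4 in H3R26C DMSO without thinning, and 4 in place of 6 within the largest cluster of H3R26C 5-Aza. The count of members past 2-fold higher with 5-Aza in H3WT was 2 in place of 1 with the mean of per-cell CPM, without the 5% of cells with most UMIs and without the named clusters, each time through Ly6c2. The count for H3R26C against H3WT with 5-Aza was 1 in place of 2 with a pseudocount of 10 CPM, where Ly6c2 was at 0.97. The count of members lower in muscle-like cells was 0 in place of 8 with cells chosen by at least 3 markers. None of 144 member log2 ratios changed sign under changes of scaling, pseudocount or cells. Summing the Ly6C copies, added after seeing the data, turned Ly6c1 in H3R26C against H3WT with 5-Aza from -0.21 to 0.49. The within-cluster ratios and the genes most like Ly6e in the 5-Aza libraries were also added after seeing the data. The log2 ratio of Ly6e with 5-Aza in H3R26C ran from 4.51 to 5.03 over 9 alternatives. Depth limits Ly6e most, at 1361 UMIs in H3WT DMSO.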
